A study of Mus musculus with 30 samples.

Results

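The genes described here are the 8 transcriptional repressors of the circadian clock that act against the activator pair BMAL1 and CLOCK: the period genes Per1, Per2 and Per3, the cryptochrome genes Cry1 and Cry2, Gm129 (now named Ciart, also known as Chrono), and the paired genes Bhlhe40 and Bhlhe41 (DEC1 and DEC2). They were chosen by name, and all 8 are among the 13575 genes of the deposited table and among the 13256 that passed the filter on low values (an average of 0.5 FPKM or more over the libraries). The series studies what the REV-ERB nuclear receptors do in the heart. Of its 30 samples, 6 are RNA libraries of mouse heart; the other 24, made from chromatin, were not analysed here. The RNA came from hearts of 2-month-old mice collected at zeitgeber time (ZT) 10, that is, 10 hours after lights on, with the atria trimmed away. The 3 libraries labelled control are named for floxed alleles, and the 3 labelled CM-RevDKO are named as a cardiomyocyte double knockout of REV-ERBα (Nr1d1) and REV-ERBβ (Nr1d2). The genotype in the labels, spelled out for chromatin, is Rev-erba/b ff/ff with or without aMHC-Cre, a Cre recombinase driven by the alpha myosin heavy chain promoter, which is active in cardiomyocytes. Where the controls lack Cre, the presence of Cre and loss of the receptors cannot be told apart, and other heart cells keep both receptors in either group. Sex and the deleted exons are not given for these libraries. Nothing in the labels ties a replicate to its own animal, so each p-value measures the spread between these libraries only.

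The mammalian clock is a loop in which BMAL1 (gene Arntl) pairs with CLOCK or its relative NPAS2, binds DNA elements called E-boxes, and activates the genes of its own inhibitors. PER proteins carry CRY proteins into the nucleus, where CRY silences the activator pair. CIART binds BMAL1 and recruits histone deacetylase, and DEC1 and DEC2 compete for E-boxes and recruit repressors. A second loop joins the first through REV-ERB, which represses Arntl, Npas2, Clock, Nfil3 and Cry1 at sites that the ROR receptors activate. D-boxes, bound by the activators DBP, TEF and HLF and the repressor E4BP4 (gene Nfil3), add a further input to the period genes.

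In CM-RevDKO hearts 1 of the 8 repressors, Gm129, rose past the test, by 1.73-fold in mean level, and none fell. Of all 13256 genes, 1.26% rose and 2.50% changed in either direction by the same test (limma on log2(FPKM + 1), Benjamini-Hochberg adjusted p under 0.05). Cry1 was at 1.91-fold of its control mean and Per3 at 0.612-fold, each with no overlap between the groups but with adjusted p = 0.0540 and 0.0800 by limma. In all, 3 of the 8 did not overlap between groups, 2 higher and 1 lower, where 23.1% of all genes did not overlap. The log2 fold change was positive for 5 members and negative for 3, with a median of 0.10 beside 0.02 over all genes tested. An unadjusted p under 0.05 was reached by 4 members (Gm129, Cry1, Per3 and Per1), where 16.6% of all genes reached it. RNA from ZT10 alone cannot separate a changed level from a changed timing of the rhythm. In bulk heart tissue, fewer cells of a type and less RNA per cell cannot be told apart.

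**Figure D1:**
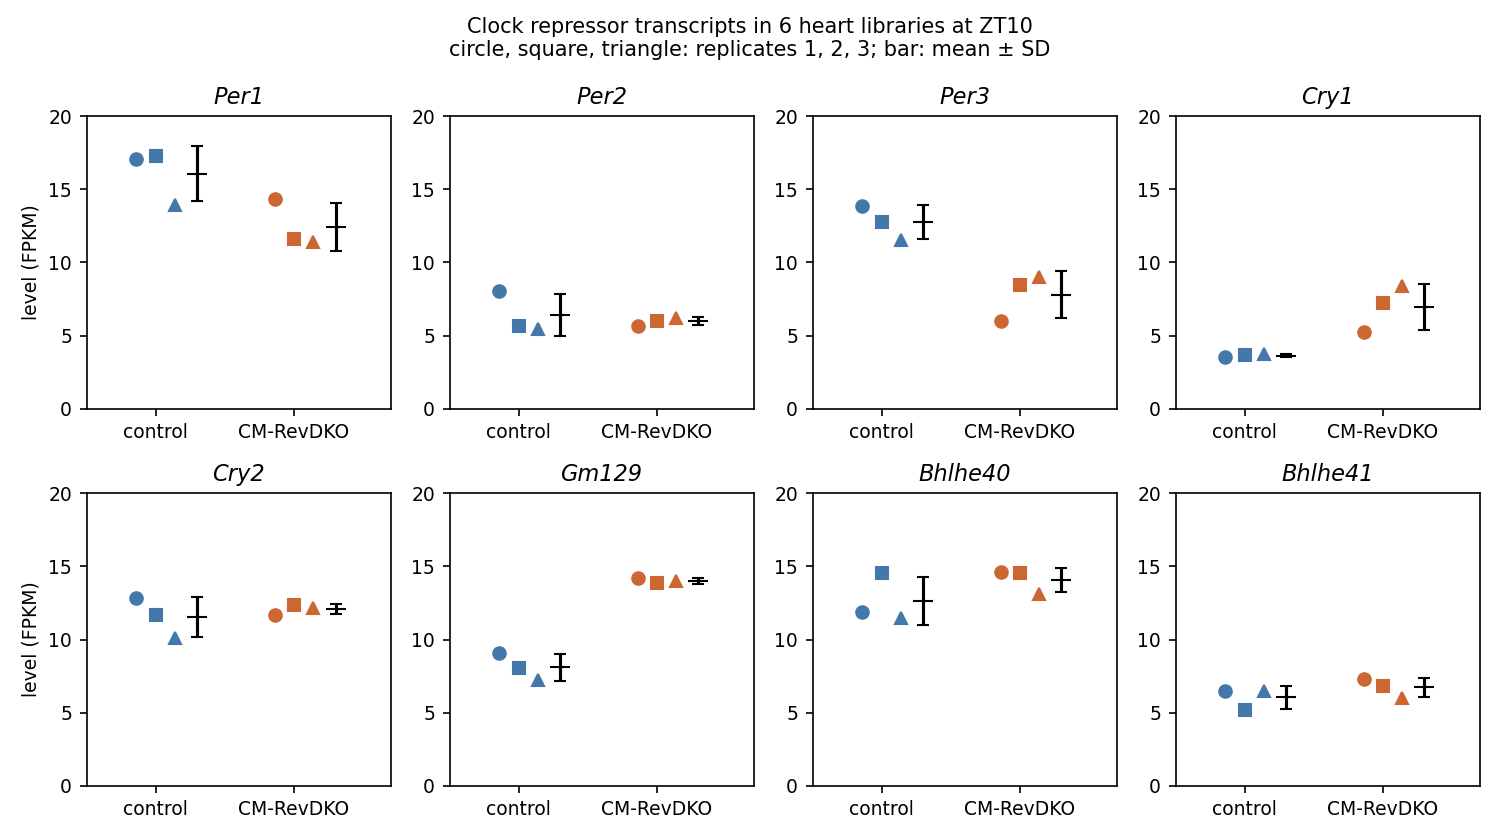
Level of each repressor in FPKM (vertical axis, from 0) in the 3 control and 3 CM-RevDKO libraries; each point is a library and the bar is the mean ± SD. Gm129 and Cry1 sit higher in all 3 CM-RevDKO libraries, Per3 sits lower in all 3, and the points of the other 5 genes overlap between the groups.

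The labels were not checked by the targeted genes. Nr1d1 stood at 20.5 ± 4.78 FPKM in control and 50.3 ± 4.60 in CM-RevDKO hearts (SD, n = 3), and Nr1d2 at 35.7 ± 4.89 and 27.4 ± 1.24. The deletion need not remove the whole transcript, so these gene-level values check nothing about it, and the names control and CM-RevDKO stand throughout for what the libraries are labelled. The libraries summed to 678722 to 712158 FPKM, and the mitochondrially encoded share was 36.9% to 41.0%. Cardiomyocyte markers were abundant in all 6 libraries, with 11 of 11 tested and summed levels of 30430 to 32590 FPKM in control and 30540 to 34280 in CM-RevDKO. CM-RevDKO replicate 1 stood apart in atrial markers, and CM-RevDKO replicates 1 and 2 in adipocyte markers. The summed level of the atrial markers (8 of 10 tested, Nppa the 1 past the test) was 230.6 to 305.7 FPKM in control, 785 and 867.7 in CM-RevDKO replicates 2 and 3, and 1522 in CM-RevDKO replicate 1. The atrial light chain gene Myl7 read 288 FPKM in that library, against 67.6 and 87.8 in the other 2 and 27.8 to 52.0 in control. The atrial gene Bmp10 read 1.94 FPKM there and is listed at 0 in the other 5 libraries. The atrial sum is mostly Nppa, at 134 to 164.4 FPKM in control and 813.1, 588.9 and 630 in CM-RevDKO replicates 1, 2 and 3. The difference of the sum between the groups is thus mostly that of 1 gene. Gene by gene, Nppa, Sln, Myl7 and Myl4 (4 of the 8 tested) lay higher in CM-RevDKO with no overlap, and 0 lay lower. Over all genes 12.6% lay higher with no overlap. Of the adipocyte markers 6 of 8 were tested, and all 6 had a positive log2 fold change (median 1.07). None passed the test and 3 had an unadjusted p under 0.05, but without CM-RevDKO replicate 3 limma called 4 higher. Cfd, which encodes the adipocyte protein adipsin, read 5.64 to 10.1 FPKM in control and 60.8, 31.3 and 7.98 in CM-RevDKO replicates 1, 2 and 3. Adipoq, the gene of adiponectin, read 1.05 to 1.06 FPKM in control and 6.96, 4.88 and 1.34 in the same order. The sum of the list, 697.1 to 821.6 FPKM in control and 592.5 to 1103 in CM-RevDKO, is mostly Fabp4 (means of 747.3 and 786.5 FPKM). None of the 6 tested adipocyte markers was at 0 in any library, and the rest of the list is not among the deposited genes. Without CM-RevDKO replicate 1 the log2 fold change was 0.72 for Gm129 (limma adjusted p = 0.0454), 0.92 for Cry1 and -0.50 for Per3, against 0.73, 0.76 and -0.66 with all libraries. Without CM-RevDKO replicates 1 and 2 it was 0.73, 1.02 and -0.46, and none of the 3 passed the test (limma adjusted p = 0.264, 0.114 and 0.452).

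The windows just upstream of the start sites are shown for 4 genes, the 3 repressors whose groups did not overlap and Cry2, the paralog of Cry1, because E-boxes and D-boxes are the known elements of the loops described above. Each reads 5′ to 3′ on the minus strand of GRCm38.p6 (mm10), from RefSeq, and ends at the base before the transcription start or upstream of it. Capitals mark matches to the E-box CACGTG, the E-prime box CACGTT or the D-box TTATGTAA, searched on both strands.
Gm129, chr3:95882258-95882478: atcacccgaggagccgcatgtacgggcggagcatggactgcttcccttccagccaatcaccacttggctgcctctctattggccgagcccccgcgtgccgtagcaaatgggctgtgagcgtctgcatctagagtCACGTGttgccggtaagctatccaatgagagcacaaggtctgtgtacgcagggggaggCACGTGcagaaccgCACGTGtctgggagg
Cry1, chr10:85185055-85185304: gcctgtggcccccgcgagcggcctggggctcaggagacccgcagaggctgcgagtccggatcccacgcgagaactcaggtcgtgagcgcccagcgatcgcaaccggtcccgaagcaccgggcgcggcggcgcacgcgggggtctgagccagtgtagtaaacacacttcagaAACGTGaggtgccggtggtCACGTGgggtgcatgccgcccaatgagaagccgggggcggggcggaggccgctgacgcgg
Cry2, chr2:92434086-92434319: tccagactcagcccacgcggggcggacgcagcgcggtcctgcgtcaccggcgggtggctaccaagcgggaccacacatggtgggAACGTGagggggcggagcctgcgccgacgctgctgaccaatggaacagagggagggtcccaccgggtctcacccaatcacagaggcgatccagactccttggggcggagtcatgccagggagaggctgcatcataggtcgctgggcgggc
Per3, chr4:151044708-151044882: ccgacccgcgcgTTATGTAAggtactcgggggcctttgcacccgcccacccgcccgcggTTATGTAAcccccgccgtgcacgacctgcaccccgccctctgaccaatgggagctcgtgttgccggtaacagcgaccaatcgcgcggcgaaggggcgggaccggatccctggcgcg
Distances are counted from the start site of each RefSeq window, which can lie inside the outer end of the gene. Each printed stretch stops at that outer end. Its last base lies 30 bases upstream of the start site for Gm129, 1 for Cry1, 17 for Cry2 and 43 for Per3. Gm129 holds 3 E-boxes, which begin 116, 58 and 44 bases upstream of the start site. Cry1 holds 1 E-box at 60 bases and 1 E-prime box at 79 bases upstream, whereas Cry2 holds 1 E-prime box at 166 bases and no E-box. Per3 holds no E-box or E-prime box and has 2 D-boxes, at 205 and 158 bases upstream. The Per3 stretch begins inside the protein-coding gene Gm38529, and the D-box at 205 bases lies within that gene. The Gm129 stretch lies within the long non-coding RNA gene C920021L13Rik. Over 32851 RefSeq windows of 300 bases (250 before to 50 after the start), 7.15% held an E-box, 4.68% an E-prime box and 0.938% a D-box. At least 3 E-boxes were found in 29 of those windows (0.0883%) and at least 2 D-boxes in 7 (0.0213%). Windows were found for 6 of the 8 members. Of the others, 1 of the 2 windows of Per1 held an E-box 166 bases upstream and a match to the REV-ERB and ROR half-site AGGTCA 137 bases upstream, and Bhlhe41 held an E-box at 153 bases. The half-site was found in 16.3% of all windows. The cAMP response element TGACGTCA, found in 1.79% of all windows, matched no window of a member. A match is a description of the letters, and no binding was measured here.

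Gm129 encodes the repressor CIART, a direct target and inhibitor of BMAL1 (ENSMUSG00000038550, chromosome 3, 95878500 to 95882257, GRCm38.p6). Its level was 9.07, 8.04 and 7.22 FPKM in the 3 control libraries and 14.2, 13.8 and 14.0 FPKM in the 3 CM-RevDKO libraries. Every CM-RevDKO value lay above every control value, and the CM-RevDKO values lay within a narrower range. The mean rose from 8.11 ± 0.927 to 14.0 ± 0.203 FPKM (SD, n = 3). The log2 fold change was 0.73 (SE 0.10, 95% interval 0.48 to 0.97, limma adjusted p = 0.0151), which ranked the gene 137 among all genes by p. The call ended without control replicate 2, control replicate 3 or CM-RevDKO replicate 2 (limma adjusted p = 0.0638, 0.0585 and 0.0682), and it ended against a fold of 1.5 (adjusted p = 1). Across all 18 alternatives the log2 fold change stayed between 0.66 and 0.80. The whole gene lies within the long non-coding RNA gene C920021L13Rik, whose means were 1.82 and 2.75 FPKM. The strand setting of the read assignment is not given in the sources used, so reads of the pair may not be separated.

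Cry1 encodes a flavoprotein that is the stronger repressor of the cryptochrome pair (ENSMUSG00000020038, chromosome 10, 85131700 to 85185054). It read 3.51, 3.65 and 3.71 FPKM in control and 5.26, 7.19 and 8.37 FPKM in CM-RevDKO libraries. The groups did not overlap, and the spread was wider in CM-RevDKO, where replicate 1 was the lowest. Means were 3.63 ± 0.101 and 6.94 ± 1.57 FPKM (SD, n = 3), and the log2 fold change was 0.76 (SE 0.15, 95% interval 0.40 to 1.12, limma adjusted p = 0.0540). The test was passed without CM-RevDKO replicate 1 (limma adjusted p = 0.0199), with a pseudocount of 0.1 (0.0485) and with only genes averaging 5 FPKM or more (0.0479). Without any other single library the limma adjusted p lay above the threshold, up to 0.164.

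Cry2, the paralog of Cry1 (ENSMUSG00000068742, chromosome 2, 92403646 to 92434085), read 12.9, 11.6 and 10.1 FPKM in control and 11.7, 12.3 and 12.2 FPKM in CM-RevDKO libraries. The groups overlapped, and the log2 fold change was 0.06 (95% interval -0.19 to 0.32, limma adjusted p = 0.826), with a sign that depended on the processing. The ratio of Cry1 to Cry2 within a library was 0.273, 0.314 and 0.366 in control and 0.45, 0.583 and 0.687 in CM-RevDKO. Cry1 was thus the less abundant cryptochrome in every library, and its ratio to Cry2 was higher in each CM-RevDKO library than in any control library. The log2 ratio differed by 0.70 (exact permutation test over the 6 libraries, two-sided, p = 0.1, the smallest that 3 against 3 allow, and 0.2 adjusted over 4 ratios).

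Per3 encodes the period protein that is least needed for behavioural rhythms (ENSMUSG00000028957, chromosome 4, 150997018 to 151044707). Its level was 13.9, 12.8 and 11.6 FPKM in control and 5.97, 8.43 and 8.98 FPKM in CM-RevDKO libraries. All CM-RevDKO values lay below all control values, the lowest again in replicate 1. Means were 12.7 ± 1.17 and 7.79 ± 1.60 FPKM (SD, n = 3), with a log2 fold change of -0.66 (SE 0.15, 95% interval -1.01 to -0.30, limma adjusted p = 0.0800). Per3 passed the test under none of the 18 alternatives (limma adjusted p from 0.0604 to 1), and without CM-RevDKO replicate 1 the log2 fold change was -0.50 (adjusted p = 0.121). The gene Uts2 lies wholly within the span of Per3, near one end.

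Per1, the period gene that responds most quickly to light and hormones (ENSMUSG00000020893, chromosome 11, 69095108 to 69109965), read 17.1, 17.3 and 13.9 FPKM in control and 14.3, 11.6 and 11.4 FPKM in CM-RevDKO libraries. CM-RevDKO replicate 1 lay within the control range and the other 2 below it. The log2 fold change was -0.35 (SE 0.13, 95% interval -0.65 to -0.04, limma adjusted p = 0.239).

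Per2, whose protein is the main scaffold of the repressor complex (ENSMUSG00000055866, chromosome 1, 91415977 to 91459351), read 8.03, 5.65 and 5.44 FPKM in control and 5.68, 6.004 and 6.22 FPKM in CM-RevDKO libraries. The CM-RevDKO values fell inside the control range, which control replicate 1 widened. The log2 fold change was -0.07 (95% interval -0.40 to 0.27, limma adjusted p = 0.872), an interval that leaves out a change as large as that fitted for Per3.

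The ratio of Per3 to Per2 was 1.73, 2.26 and 2.12 in control and 1.05, 1.40 and 1.44 in CM-RevDKO libraries, with no overlap. Its log2 value differed by -0.59 (exact permutation test, two-sided, p = 0.1, adjusted 0.2). The ratio of Per1 to Per2 was 2.58 ± 0.466 in control and 2.10 ± 0.374 in CM-RevDKO (SD, n = 3), with overlap (exact permutation p = 0.2, adjusted 0.267). Of the period genes Per3 lay farthest from its control mean and Per2 nearest, and the exact permutation test on 3 against 3 libraries cannot give a p below 0.1.

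**Figure D2:**
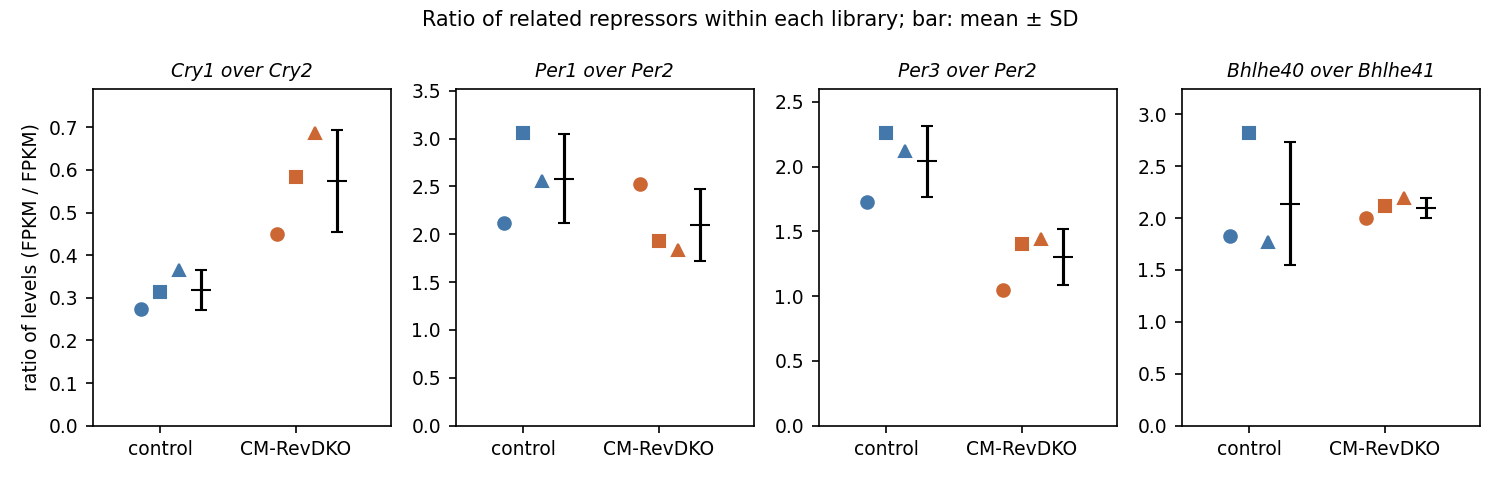
Ratio of the FPKM levels of related repressors within each library (vertical axes, from 0, one scale per panel); points are libraries and bars the mean ± SD of 3. Cry1 over Cry2 runs from 0.273 to 0.366 in control and from 0.45 to 0.687 in CM-RevDKO, Per3 over Per2 is lower in every CM-RevDKO library, and the other 2 ratios overlap.

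Bhlhe40 encodes DEC1, a repressor induced by many signals, hypoxia among them (ENSMUSG00000030103, chromosome 6, 108660629 to 108666925). It read 11.9, 14.5 and 11.5 FPKM in control and 14.6, 14.5 and 13.1 FPKM in CM-RevDKO libraries, and the groups overlapped. Its log2 fold change was 0.15 (95% interval -0.12 to 0.42, limma adjusted p = 0.561). Bhlhe41 encodes DEC2 (ENSMUSG00000030256, chromosome 6, 145858243 to 145865420) and read 6.49, 5.15 and 6.48 FPKM in control and 7.32, 6.85 and 6.004 FPKM in CM-RevDKO libraries. Its log2 fold change was 0.14 (95% interval -0.15 to 0.42, limma adjusted p = 0.635). The ratio of Bhlhe40 to Bhlhe41 was 2.14 ± 0.588 and 2.10 ± 0.0967 (SD, n = 3; exact permutation p = 1), so the more abundant of the pair was Bhlhe40 in each library. The lncRNA gene 0610040F04Rik overlaps Bhlhe40, as Gm35591 does Per2 and D930015M05Rik does Cry2.

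**Figure D3:**
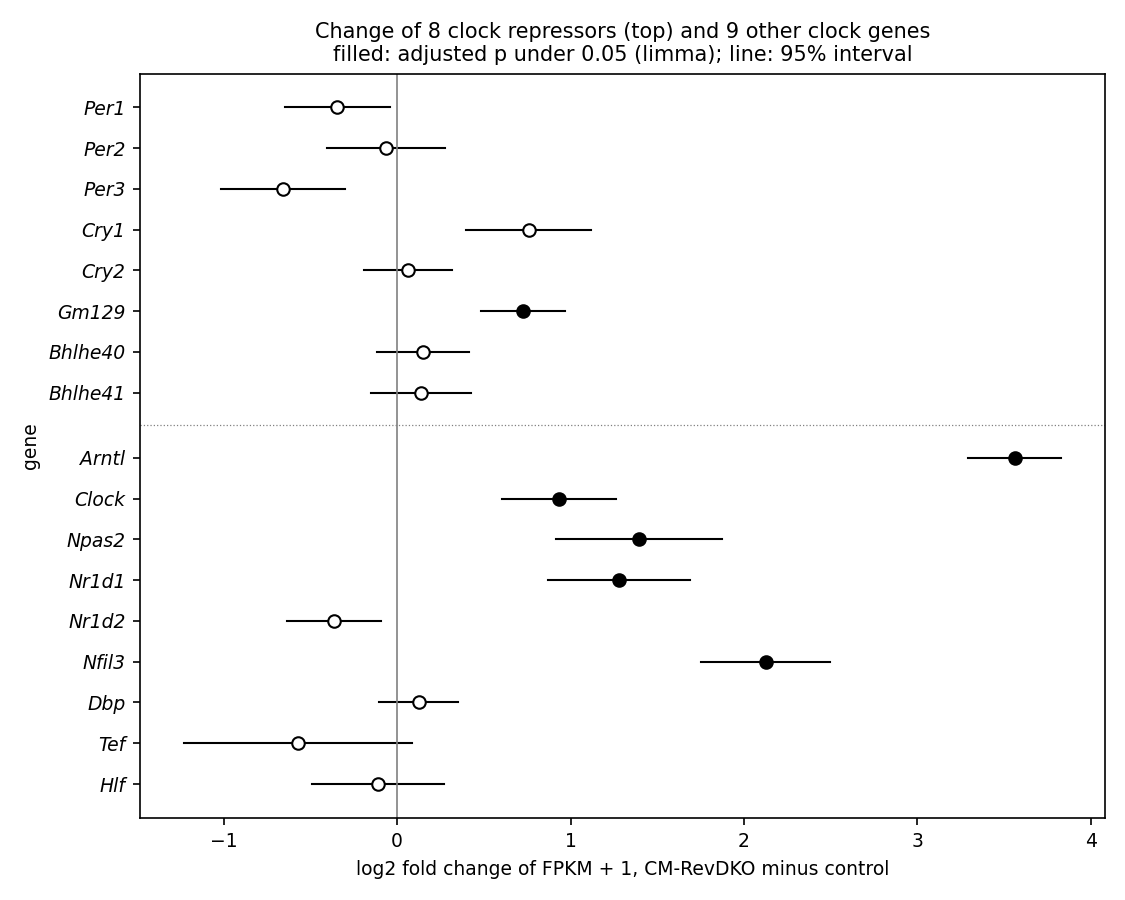
Fitted log2 fold change (horizontal axis, CM-RevDKO minus control, log2(FPKM + 1) scale) of the 8 repressors, above the dotted line, and 9 other clock genes below it, with 95% intervals from limma; filled points passed the test. The intervals of Gm129 (0.48 to 0.97) and Cry1 (0.40 to 1.12) lie above 0, those of Per3 (-1.01 to -0.30) and Per1 (-0.65 to -0.04) lie below it, and those of the other 4 repressors cross it; Arntl lies farthest from 0 at 3.56.

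Levels per length order the 8 repressors differently in the 2 groups. In control hearts Per1 had the highest mean at 16.1 ± 1.89 FPKM. Next by mean were Per3 (12.7), Bhlhe40 (12.6) and Cry2 (11.6), whose ranges overlapped from one to the next. The range of Per1 (13.9 to 17.3 FPKM) overlapped that of Bhlhe40 (11.5 to 14.5). Gm129 (8.11), Per2 (6.38) and Bhlhe41 (6.04) formed a lower group of overlapping neighbours, and Cry1 was lowest at 3.63, below the range of Bhlhe41. In CM-RevDKO hearts Bhlhe40 (14.1 FPKM), Gm129 (14.0), Per1 (12.4) and Cry2 (12.1) were neighbours with overlapping ranges. Per3 (7.79), Cry1 (6.94), Bhlhe41 (6.72) and Per2 (5.97) followed below a gap, again overlapping from one to the next. By mean level Gm129 thus ranked 5 in control and 2 in CM-RevDKO, Cry1 ranked 8 and 6, and Per3 ranked 2 and 5.

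The summed level of the 8 repressors was 82.8, 78.7 and 69.9 FPKM in control and 79.1, 80.7 and 80.3 FPKM in CM-RevDKO libraries. The sums overlapped, with means of 77.2 ± 6.60 and 80.1 ± 0.844 FPKM (SD, n = 3). Gm129 held 10.2% to 11.0% of it in control and 17.1% to 18.0% in CM-RevDKO libraries, and Cry1 held 4.24% to 5.30% and 6.65% to 10.4%. Per3 held 16.2% to 16.8% and 7.55% to 11.2%, and Per1 19.9% to 21.9% and 14.2% to 18.1%. None of these 4 shares overlapped between the groups, whereas those of Per2, Cry2, Bhlhe40 and Bhlhe41 all did. The FPKM levels of Per1 overlapped although its shares did not. These are shares of RNA, and a share falls when another member takes more.

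Of the activators that these genes restrain, 3 of 4 rose, with a median log2 fold change of 1.16 beside 0.02 over all genes. Arntl, the gene of BMAL1, read 0.295, 0.145 and 0.0831 FPKM in control and 12.6, 12.9 and 12.9 FPKM in CM-RevDKO libraries, a log2 fold change of 3.56 (limma adjusted p = 1.72e-05). Npas2 rose by 1.39 on the log2(FPKM + 1) scale, from 0.932 ± 0.422 to 4.06 ± 0.903 FPKM (limma adjusted p = 0.0168), and Clock by 0.93, from 2.97 ± 0.210 to 6.65 ± 1.22 FPKM (0.0186; SD, n = 3). That scale understates the change of low genes. The fold of mean FPKM was 73.55 for Arntl, near the floor in control, 4.36 for Npas2 and 2.24 for Clock. The call of Clock held only without CM-RevDKO replicate 1 among the fits that leave out 1 library, and that of Npas2 in 2 of 6 such fits (those that leave out control replicate 3 and CM-RevDKO replicate 1; limma adjusted p up to 0.0779 in the others). Arntl2, the paralog of Arntl, stood at 1.78 ± 0.464 and 1.09 ± 0.519 FPKM (log2 fold change -0.43, limma adjusted p = 0.400; SD, n = 3). The summed level of Arntl, Clock and Npas2 was 3.94, 3.67 and 4.62 FPKM in control and 20.8, 24.8 and 25.0 FPKM in CM-RevDKO. Per FPKM of the 8 repressors, this was 0.0476, 0.0466 and 0.0661 in control and 0.263, 0.307 and 0.311 in CM-RevDKO libraries. Both leave out Arntl2, the activator that did not rise. With it the summed level was 5.47, 5.98 and 6.11 FPKM in control and 21.4, 26.3 and 26.2 FPKM in CM-RevDKO libraries.

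Among other genes that BMAL1 and CLOCK activate through E-boxes, 1 of 9 rose, 3 fell and 5 did not pass the test, with a median log2 fold change of -0.36. Without control replicate 2 or without CM-RevDKO replicate 2, 1 rose and 1 fell. The gene that rose was Nr1d1 (1.28, limma adjusted p = 0.0124), and the median is the value of Nr1d2. Both are genes targeted in CM-RevDKO, so neither describes an intact E-box output. No other gene of the list rose past the test. Nampt, the rate-limiting enzyme of NAD salvage, fell from 55.9 ± 6.63 to 10.7 ± 0.216 FPKM (log2 fold change -2.28, limma adjusted p = 1.40e-04). Wee1, a kinase that delays mitosis, fell from 7.93 ± 0.949 to 4.17 ± 0.0939 FPKM (-0.78, 0.0140; SD, n = 3). Leaving out 1 library ended the call of Wee1 in 3 of 6 fits (control replicates 2 and 3 and CM-RevDKO replicate 2, limma adjusted p up to 0.0626) and that of Nampt in none. Of the 4 D-box factors, the repressor gene Nfil3 rose from 2.89 ± 0.875 to 15.7 ± 0.823 FPKM (2.13, limma adjusted p = 0.00111). The activator genes Dbp, Tef and Hlf did not pass the test, at 81.2, 68.6 and 8.11 FPKM in control and 88.8, 45.8 and 7.37 FPKM in CM-RevDKO (limma adjusted p = 0.575, 0.366 and 0.798).

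Enzymes that modify or degrade PER and CRY proteins did not pass the test in either direction (0 of 21, median log2 fold change -0.02, 2 at an unadjusted p under 0.05). Of the 21, 2 lay higher and 3 lower with no overlap between the groups, where 23.1% of all genes did not overlap. Csnk1e, which encodes the casein kinase CK1ε that phosphorylates PER and was singled out after its values were seen, stood at 17.8 ± 1.11 and 23.2 ± 1.26 FPKM with no overlap (SD, n = 3; limma adjusted p = 0.103). Nuclear partners of the PER complex also gave 0 of 18 past the test (median 0.02, 2 at an unadjusted p under 0.05). Gene groups that mark other inputs to these repressors were counted too. By limma none passed the test among 10 glucocorticoid-induced genes (median -0.12, 2 at an unadjusted p under 0.05), 12 immediate early and CREB-induced genes (0.10, 2) and 12 hypoxia-induced genes (0.01, 3). Of the hypoxia-induced genes 1 was called lower with quantile normalization, with scaling that leaves out mitochondrially encoded genes, and without control replicate 1. None passed among 10 heat shock genes (0.17, 2) and 3 ID inhibitors of E-box factors (0.14, 0).

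**Figure D4:**
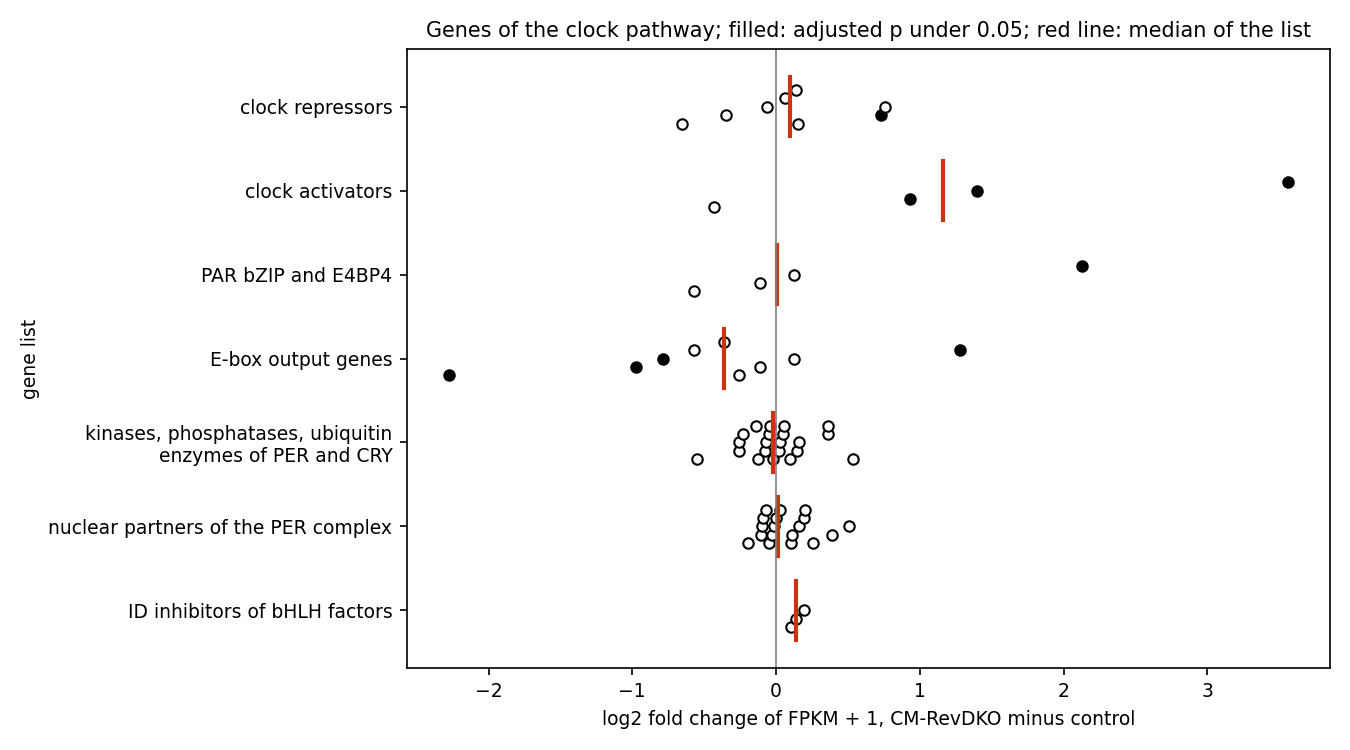
Log2 fold change (CM-RevDKO minus control, log2(FPKM + 1) scale) of each tested gene of the 8 repressors and of 6 other clock lists; each point is a gene, filled points passed the test, and the red line is the list's median. The activators have the highest median (1.16) of the lists shown, the repressors sit at 0.10 and the E-box output genes at -0.36. The E-box output genes include the targeted Nr1d1 and Nr1d2, and their median is the value of Nr1d2.

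The genes whose profiles over the 6 libraries were most like those of Gm129, Cry1 and Per3 were named by the smallest root mean square difference between centred log2 profiles, among 6576 genes averaging 5 FPKM or more. The other 5 members varied too little for such a comparison. Nearest to Gm129 were Nudcd3 (difference 0.0596), Nudt14 (0.0648) and Rab31 (0.0664). Nudcd3, which encodes a co-chaperone of dynein, read 11.5, 10.8 and 10.4 FPKM in control and 19.8, 19.9 and 19.4 FPKM in CM-RevDKO libraries (limma adjusted p = 0.00472). Its values, like those of Gm129, were nearly level across the CM-RevDKO libraries. Nearest to Cry1 were the retroviral restriction gene Fv1 (0.0978), the microtubule gene Clasp1 (0.119) and the adhesion receptor gene Lphn1 (0.128), each lowest within CM-RevDKO in replicate 1, as Cry1 was. Nearest to Per3 were mt-Tc (0.0927), a mitochondrial transfer RNA whose short length makes its FPKM uncertain, the lipid droplet gene Plin4 (0.0950) and Kcnip2 (0.0955), a subunit of the cardiac transient outward potassium channel. Plin4 read 34.5, 33.2 and 30.4 FPKM in control and 18.8, 20.6 and 23.9 FPKM in CM-RevDKO libraries, with the lowest value in replicate 1, as for Per3. With 6 libraries in 2 groups, likeness is mostly a shared difference between the groups and is given as a description.

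Other marker lists stood beside these results as follows. Of cardiomyocyte markers 1 of 11 rose (Mybpc3, limma adjusted p = 0.0469, lost without any 1 of the 6 libraries) and of smooth muscle and pericyte markers 1 of 8 fell (Abcc9, lost without control replicate 1 or 2), at summed levels of 232.4 to 279.4 FPKM in control and 254.6 to 275 in CM-RevDKO. Of the latter list 5 had a positive log2 fold change and 3 a negative one, so Abcc9 alone is no measure of those cells. No marker passed the test among 8 fibroblast markers (381.8 to 548.7 and 399.1 to 513.8 FPKM), 8 endothelial markers (230.8 to 267.2 and 248.4 to 289), 7 leukocyte markers (106 to 122.7 and 96.0 to 166.7) and 4 erythroid markers (4344 to 7605 and 7432 to 9278). By limma 0 of the fibroblast, endothelial and leukocyte markers and 2 of the erythroid markers had an unadjusted p under 0.05, as did 5 of the cardiomyocyte, 4 of the atrial and 3 of the smooth muscle and pericyte markers. The median log2 fold change was -0.05 for the cardiomyocyte markers, 0.86 for the atrial and 0.16 for the smooth muscle and pericyte markers. Without CM-RevDKO replicate 3, limma called 2 cardiomyocyte markers lower.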

How the data were processed

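Mouse heart RNA was extracted with TRIZOL and made into NEBNext Ultra II libraries, 3 labelled control and 3 labelled CM-RevDKO, per the labels' protocols. The authors deposited 1 value per gene and library, read here as FPKM, the unit StringTie reports; the header names no unit and TPM differs only by a factor per library. The submitters' processing notes name HISAT2 and StringTie, without versions, and the build mm10. Sequencing depth is unknown, so no counting interval is given.

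Groups and replicate numbers come from the labels, and all value columns matched a sample. Genes averaging 0.5 FPKM or more were fitted as log2(FPKM + 1) with limma 3.58.1 in R 4.3.3 (lmFit, eBayes with trend, group as the only term), with two-sided p-values adjusted by Benjamini-Hochberg over 13256 genes and a threshold of 0.05. Fold changes on this scale understate those of low genes. Ratios of paralogs were compared, as log2((A + 1)/(B + 1)), by exact permutation over libraries, adjusted over 4. No 2 libraries were identical. The procedure was run on simulated data, a check that required recovery only of changes larger than those fitted for the repressors. Coordinates and upstream windows come from RefSeq, GRCm38.p6, matched by symbol. Motifs were searched with Python 3.11.15 and figures drawn with matplotlib 3.10.9.

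Named genes are the 8 members, 9 clock genes (Arntl, Clock, Npas2, Nr1d1, Nr1d2, Dbp, Tef, Hlf and Nfil3), up to 3 genes past the test per list, marker genes beside a result, and the 3 genes nearest in profile to each member whose own profile had a root mean square of at least 0.3; Csnk1e lies outside this rule, and 1 gene within it and its list are not reported here. The 8 members, 11 other pathway lists and 8 marker lists were chosen with earlier results of these data known. The 18 alternatives were other pseudocounts, filters, scalings and tests, a replicate block and left-out libraries.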

Additional observations from a re-analysis of the deposited data

How the results depend on the processing

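Of the 8 repressors 1 passed the test (Gm129), and 332 of all genes did. With a pseudocount of 0.1 or with genes averaging 5 FPKM or more, 2 repressors passed, Gm129 and Cry1. Against a fold of 1.5 (limma treat), 0 repressors and 35 genes passed. Leaving out 1 library gave 0 to 2 repressors and 120 to 322 genes: 0 repressors with control replicate 2, control replicate 3 or CM-RevDKO replicate 2 left out, and 2 with CM-RevDKO replicate 1 left out. With both control replicate 2 and CM-RevDKO replicate 1 left out the counts were 0 and 105, and without CM-RevDKO replicates 1 and 2 they were 0 and 21; in these and the leave-one-out fits fewer samples were fitted. With the replicate number as a block, 0 repressors and 115 genes passed and Gm129 had limma adjusted p = 0.0644. Same-numbered libraries did not deviate together more than others (correlations of -0.037, -0.0642 and 0.0933, against -0.0885 to 0.109 for the other pairs). With 3 libraries per group this check cannot exclude that the numbers pair them. Scaling that leaves out mitochondrially encoded genes gave 118 genes higher and 212 lower, where 167 and 165 were as deposited. Signs turned only for values near 0: Cry2 (log2 fold change -0.00077 with that scaling and -0.020 without control replicate 3, -0.020 to 0.14 with 1 library left out), Per2 (0.089 without control replicate 1, range -0.15 to 0.089) and Hlf (0.037 without control replicate 3, range -0.25 to 0.037, and 0.075 without CM-RevDKO replicates 1 and 2). Bhlhe41 turned to -0.013 with both control replicate 2 and CM-RevDKO replicate 1 left out and to -0.0014 without CM-RevDKO replicates 1 and 2. The log2 ratio of Bhlhe40 to Bhlhe41 changed by -0.0933 to 0.205 with 1 library left out, and by -0.0701 without control replicate 1, -0.0933 without control replicate 3 and -0.00834 without CM-RevDKO replicate 3. The direction of Per1, Per3, Cry1, Gm129 and Bhlhe40 was kept under all 18 alternatives. The cause of these changes was not tested. Depth is unknown, and 3 libraries per group limit the precision.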
